A study of Rattus norvegicus with 30 samples.

Results

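The lungs of 10 rats that inhaled only air were compared between 2 days, 5 rats killed on day 6 and 5 other rats killed on day 28. They were all arrays of dose 0 mg/m3 among the 30 arrays of an inhalation study of copper oxide nanoparticles, and they were chosen by the day and the dose in their titles. All 30367 non-control probes entered, and 18420 genes were tested, those with a probe whose lung signal cleared its background on 5 arrays or more. The animals were male outbred Wistar Unilever rats (HsdCpb:WU), bought at 8 weeks of age and acclimatized for 2 weeks, with a mean weight of 332 ± 22 g. Every rat of the study was held for nose-only exposure on 5 days. The air rats breathed only air in that time, the low dose rats 3.3 mg/m3 and the high dose rats 13.2 mg/m3 of particles as a 6-hour equivalent. Day 6 was 1 day after the last session, and day 28 was 22 days after it. The labels name the particle as treatment also for dose 0, so these rats are air controls on the word of the protocol and the dose. Nothing in the labels gives the time of day of tissue collection. Day, age, time since restraint and any difference in collection time cannot be told apart here, since each day is a separate set of rats.

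Each array held lung RNA of 1 rat in the red channel (Cy5) and a common reference RNA in the green channel (Cy3). A level below is log2 of lung over reference signal, so a level has meaning only against another level of the same gene. A change is the mean level on day 28 minus that on day 6, also in log2 units, with the standard error (SE) of a limma fit over all 6 groups. A gene passed at a Benjamini-Hochberg adjusted p under 0.05 over all tested genes. The samples are whole lung, so fewer cells of a type and less RNA per cell cannot be told apart. The surfactant gene Sftpc and the club cell gene Scgb1a1 reached levels of 10.81 and 6.19 in these rats, and neither passed between the days (changes of 0.33 and 0.24).

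A pair of arrays stood apart before any test. Day 6 rat 4 correlated with the other day 6 rats at a mean r of 0.0425 across genes, each centred on its mean over the 30 arrays, against 0.297 to 0.372 for the others of its group. The mean level of 17 measured heart muscle genes was 3.66 in that rat and between -1.13 and -0.330 in the other 9 air rats. Day 28 rat 8 correlated with its own group at 0.134 and with the day 6 rats at 0.246. Its median Cy5 intensity was 358, where the other day 28 rats had 216 to 296 and the day 6 rats 322 to 409. Signal thus ran lower on day 28 in 4 of 5 rats, and the part of that in the results was not tested. Rat 8 was the only day 28 air array on slide 1, beside day 6 rats 1 and 5 (Cy5 of 336.5 and 322). The other day 28 air arrays were on slides 2 and 4, and rat 4 was the only air array on slide 3. Among the air arrays alone, traits of rats 4 and 8 and of their slides therefore cannot be told apart. Slides 1 and 3 also held arrays of exposed rats. Results below are given with all 10 rats, and without these 2 where that moves them.

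In lungs that received no particles, 543 of 18420 genes (2.95%) passed between the days. Of these, 343 (1.86% of all tested) were higher and 200 (1.09%) were lower on day 28. Most changes were small: 206 of the 543 reached 1.5-fold and 47 reached 2-fold, 24 of them higher and 23 lower. The 5 and 5 rats did not overlap in 385 of the 543 genes, which is 2.09% of all tested, while 1169 genes (6.35%) had no overlap whether they passed or not. The median change of all tested genes was 0.01, so groups of genes can be read against a centre near 0. With arrays centred on their medians in place of loess, that median was -0.16, 94 genes passed, and 20.2% of them were higher in place of 63.2%. Quantile normalization of Cy5 alone, without loess, gave 391 higher and 259 lower (60.2% higher), and 388 of the 543 passed the same way. Of the scalings run, median centring was thus the one that turned the balance. Quantile normalization gives all arrays the same distribution of signals, so it is no independent check of that balance. The largest changes among genes with a symbol that passed were a fall of the clock output gene Dbp and a rise of the elastin gene Eln.

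The count of 543 depended on rat 8. Without it 2495 genes passed (13.5%), 1635 higher (8.88%) and 860 lower (4.67%), and 541 of the 543 passed the same way. In 2037 of those 2495 genes (81.6%) rat 8 lay nearer the mean of day 6 than the mean of the other 4 day 28 rats. The same share, taken for each other air rat in the genes that passed without it, ran from 3.89% for rat 9 to 29.2% for rat 4. When any air rat other than 8 was left out, between 180 genes (without rat 9) and 432 genes (without rat 4) passed. The shares of those rats thus rest on other and smaller sets of genes than that of rat 8, which limits their comparison. Each set was also chosen by a fit that left the rat out. Of the 2495 genes, only 541 passed the same way with rat 8 included, so its high share follows in part from that choice. Among the 50 genes described below that passed, none lost its pass without rat 8. In the clock genes that passed and in Eln, rat 8 did not overlap the day 6 rats, though in Klf9 (1.68) it came close to the lowest of them (1.74). In Cry2, which did not pass, it was at 0.0714 and the other day 28 rats at 0.52 or more.

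**Figure D1:**
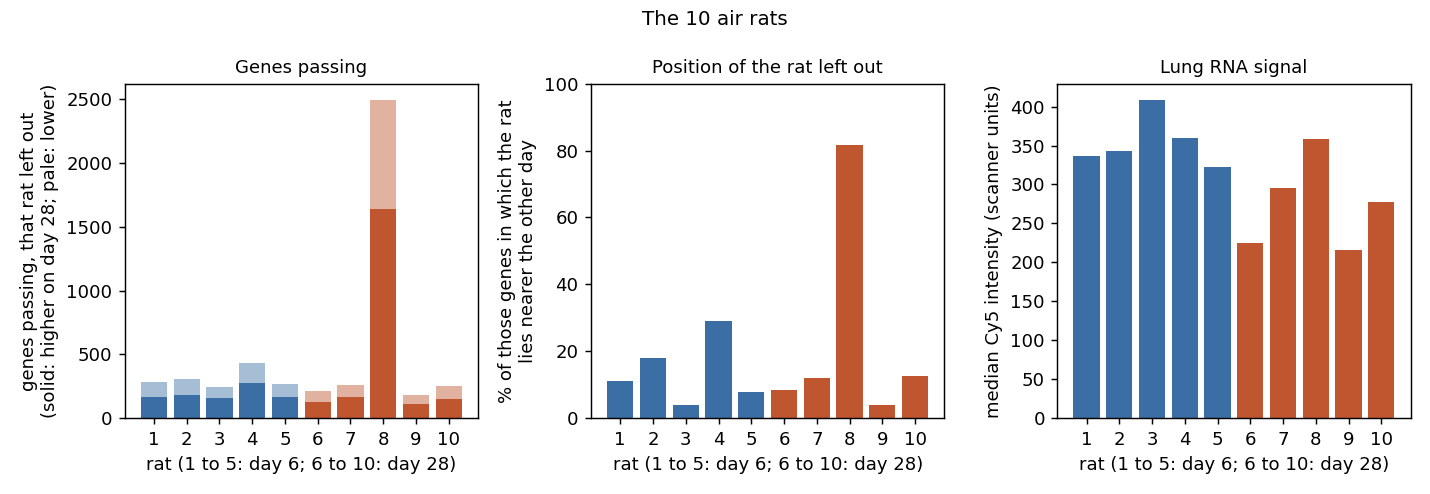
The 10 air rats, day 6 in blue and day 28 in orange: genes passing between the days when that rat is left out (solid for higher on day 28, pale for lower), the percent of those genes in which the rat lies nearer the mean of the other day, and the median Cy5 intensity of its array in scanner units. Without rat 8, 2495 genes passed, and rat 8 was nearer day 6 in 81.6% of them, a share that depends in part on choosing genes without it. Its intensity of 358 lies among those of day 6.

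The mammalian circadian clock is a feedback loop present in nearly every cell, the lung included. The activators BMAL1 with CLOCK or its relative NPAS2 bind E-box motifs and switch on the Per and Cry genes, whose proteins then shut the activators off. The receptors NR1D1 and NR1D2 repress Bmal1 and Npas2, and the output factors DBP, TEF and HLF, opposed by NFIL3, drive further genes through D-box motifs. Messages of the activators and of the Per and Dbp group therefore peak at opposite times of day.

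The clock genes made up the clearest group: the activators were higher and the Per2, Per3, Cry1 and Dbp messages were lower on day 28. Of 12 measured core clock genes, 3 rose and 4 fell, and of 9 measured clock output genes 1 rose and 7 fell, against 1.86% and 1.09% of all genes. Their median changes were -0.26 and -0.75, against 0.01 for all genes. Rora, Bhlhe41 and Hlf had no measured probe. Ciart, counted among the 4 core genes that fell, was not well above background on any day 28 air array. The 8 output genes that passed were 3 without rat 6 and 5 without rat 5, 7 or 9, while no rat moved the core count by over 1.5 times.

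Among the activators, Bmal1 had levels of -2.27, -1.81, -2.09, -1.72 and -2.11 in day 6 rats 1 to 5, and of 0.02, -0.17, 0.35, -0.33 and -0.62 in day 28 rats 6 to 10. The groups were far apart, and rat 8 was the highest of all. The change was 1.85 (SE 0.155, adjusted p = 6.76e-09), a 3.60-fold rise. Npas2, which can replace CLOCK as the partner of BMAL1, went from -1.06, -0.56, -1.37, -0.62 and -0.96 on day 6 to 1.43, 1.38, 1.52, 1.30 and 0.70 on day 28. Each day 28 rat exceeded each day 6 rat by more than 1 log2 unit, with rat 10 below its group. The change was 2.18 (SE 0.156, adjusted p = 2.07e-10). Clock itself rose less, by 0.61 (adjusted p = 0.0199), from 0.27 to 0.68 on day 6 to 0.82 to 1.29 on day 28. Its rise missed the threshold under 6 of 23 alternatives. Both Bmal1 probes rose (1.85 and 0.94), whereas further probes of Npas2 and Clock, dimmer ones, gave 0.27 and 0.05 and did not pass.

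Among the inhibitors, Per2 had levels of 2.07, 1.87, 2.19, 2.21 and 2.08 on day 6 and of -0.45, -0.82, -0.47, -0.28 and -0.04 on day 28. Within each day the 5 rats lay within 1 unit of each other, and the days did not overlap. The change was -2.50 (SE 0.146, adjusted p = 5.27e-12), which is 5.65-fold lower. Per3 fell by 1.01 (adjusted p = 1.34e-06), with similar drops by all 3 of its probes (-0.83 to -1.10). Cry1, the repressor that acts with PER, was at 0.44, -0.01, 0.59, 0.35 and 0.40 on day 6 and at -0.65, -0.74, -0.68, -0.62 and -0.79 on day 28. Day 28 rats were tightly grouped (SD 0.0699, n = 5) and all below day 6, a change of -1.05 (SE 0.102, adjusted p = 1.39e-07). Its relative Cry2 gave -0.06 (adjusted p = 0.776). Per1 was well above background on all 5 day 6 arrays and on none of day 28. Its fall did not pass (adjusted p = 0.063). Set against the lowest signal well above background, the day 28 mean gave a bound of 1.12-fold lower, which carries no error and is not an established fall.

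The repressor receptors did not share in this. Nr1d1, which encodes REV-ERB alpha, ran from 0.67 to 1.36 on day 6 and from 0.92 to 1.58 on day 28, with overlapping groups and a change of 0.01 (SE 0.185, adjusted p = 0.973). Nr1d2 gave -0.34 (adjusted p = 0.173) and Bhlhe40, another E-box repressor, -0.34 (adjusted p = 0.208). Ciart, a repressor of the CLOCK and BMAL1 pair, was not well above background on any day 28 array. Its fitted change had an adjusted p of 0.0413, which missed the threshold under 12 of 23 alternatives, and no fold is given for it.

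Of the output genes, Dbp changed most of all genes with a symbol. Its levels were 2.98, 2.72, 2.84, 2.26 and 2.58 on day 6 and -0.58, -0.69, -0.66, -0.28 and 0.52 on day 28. The highest day 28 rat, rat 10, was still below every day 6 rat by more than 1 unit. The change was -3.01 (SE 0.225, adjusted p = 4.87e-10), 8.07-fold lower, and the other probes of Dbp gave -2.33 and -2.41. Arrays of both days shared 3 slides, and within them Dbp differed by -3.44, -3.15 and -2.93.

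Wee1, a kinase that restrains entry into mitosis and a known clock target, was at 0.73, 0.39, 0.78, 0.79 and 0.87 on day 6 and at -1.17, -1.18, -0.73, -1.26 and -0.91 on day 28. The groups were over 1 unit apart, with a change of -1.76 (SE 0.125, adjusted p = 2.07e-10). Tef fell by 0.90 (adjusted p = 0.0143) and Nfil3, the opponent of DBP, rose by 0.54 (adjusted p = 0.00143). The other output genes that passed were Usp2 (-0.51), Nampt (-0.38), Klf9 (-0.75) and Klf15 (-0.85), and Noct gave -0.03 without passing. Usp2 missed the threshold under 13 of 23 alternatives, Klf15 under 7, Nampt under 5 and Klf9 under 4. Usp2, Nampt, Noct, Klf15 and Bhlhe40 lie outside the rule for named genes and are given to complete their lists. Within this group Per2, Dbp, Wee1, Per3, Cry1, Bmal1 and Npas2 passed under all 23 alternatives run.

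**Figure D2:**
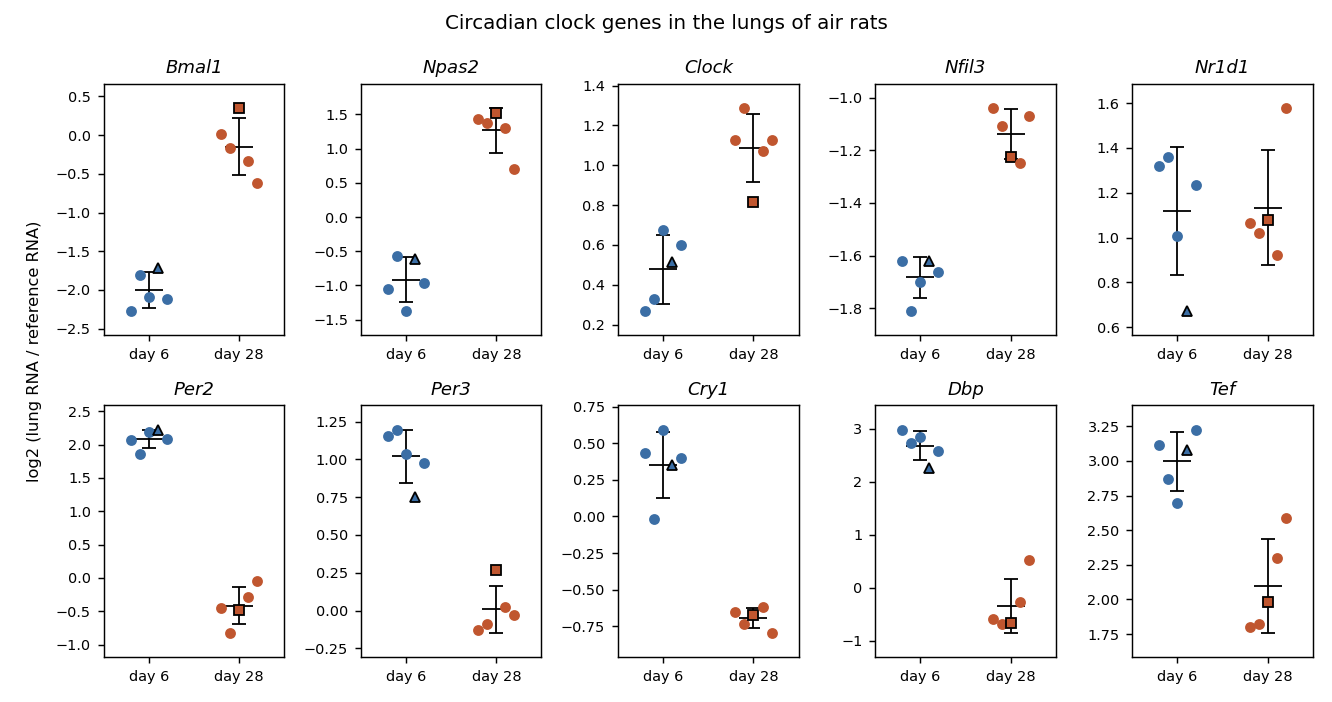
Levels of 10 clock genes in each air rat, as log2 of lung over reference RNA, by day; bars are the mean and SD of 5 rats, the triangle is rat 4 and the square rat 8, and each plot has its own axis. Bmal1, Npas2, Clock and Nfil3 are higher and Per2, Per3, Cry1, Dbp and Tef lower on day 28 with no overlap, while Nr1d1 overlaps.

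The sequences before the start sites of these genes were read from a RefSeq promoter table (GRCr8) to show which carry the motifs of the loop. Of 21 clock genes measured, 18 had a promoter there. An E-box was searched as CACGTG, which reads the same on both strands, and a D-box as TTATGTAA or TTACGTAA on both strands, in the 250 bases before each start. An E-box stood in the promoters of Ciart, Bhlhe40, Tef, Nr1d1 and Klf15, 5 of the 18, and in 5.59% of all 33469 promoters of that length. A D-box stood only in that of Per2 among the 18, and in 0.932% of all. Counts out of 18 are of genes with the motif in any of their promoters, while the percentages are of promoters. Nr1d1 had a further promoter without an E-box. Bmal1, Npas2 and Dbp had neither in this window. Genes with an E-box here included some that fell (Tef, Ciart, Klf15) and some that did not pass (Nr1d1, Bhlhe40). The sequences of 3 that fell are shown 5′ to 3′ on the gene's strand with the motifs in capitals: Per2 for its D-box, whose first base lies 192 bases before the start, Tef for its E-box at 198 bases, and Ciart for its 3 E-boxes at 93, 35 and 21 bases.
Per2 (chr9:99496994-99497243, minus strand): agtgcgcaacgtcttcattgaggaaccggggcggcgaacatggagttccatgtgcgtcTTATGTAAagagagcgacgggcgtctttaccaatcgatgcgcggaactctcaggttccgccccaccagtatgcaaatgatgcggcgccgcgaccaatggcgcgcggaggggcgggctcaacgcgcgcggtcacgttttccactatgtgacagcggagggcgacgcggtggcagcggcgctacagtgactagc
Tef (chr7:115206577-115206826, plus strand): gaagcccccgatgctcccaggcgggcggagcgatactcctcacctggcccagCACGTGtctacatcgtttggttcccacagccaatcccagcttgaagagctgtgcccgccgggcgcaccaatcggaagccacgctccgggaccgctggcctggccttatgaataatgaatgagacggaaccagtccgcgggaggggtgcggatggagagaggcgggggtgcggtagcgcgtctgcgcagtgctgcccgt
Ciart (chr2:186112247-186112496, minus strand): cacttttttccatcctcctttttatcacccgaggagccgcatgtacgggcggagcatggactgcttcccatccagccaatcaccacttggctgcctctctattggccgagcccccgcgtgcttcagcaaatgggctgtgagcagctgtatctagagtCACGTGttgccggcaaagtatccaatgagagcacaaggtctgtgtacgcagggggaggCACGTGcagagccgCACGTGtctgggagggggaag
A match of letters is a description of the window and not a measured binding site.

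The clock genes were also read in the exposed rats of the same days, which share no arrays with the air rats. Mean levels of Dbp on day 6 were 2.68 ± 0.276 in air, 2.44 ± 0.274 in low dose and 1.57 ± 0.616 in high dose rats (SD, n = 5 each). On day 28 they were -0.34 ± 0.504 in air, -2.38 ± 0.0908 in low dose and 2.31 ± 0.238 in high dose rats. The 3 sets of day 28 rats thus had 3 separate levels, with air between the exposed groups. The day change of Dbp was -4.82 at the low and 0.73 at the high dose, and both differed from that of air (adjusted p = 0.000972 and 1.59e-09). Nr1d1, at 1.13 ± 0.256 in air rats on day 28, was at -0.77 ± 0.117 in low dose and 1.93 ± 0.259 in high dose rats. Its day change of -2.01 at the low dose and 1.84 at the high dose differed from that of air in both (adjusted p = 1.74e-05 and 9.59e-06). Bmal1 rose by 2.10 at the low dose and gave 0.04 at the high dose, which differed from air only at the high dose (adjusted p = 0.822 and 7.29e-07). Cry1 fell by 1.03 at the high dose and gave 0.06 at the low dose, which differed from air only at the low dose (adjusted p = 0.96 and 2.07e-05). The labels do not say in which order the groups of a day were collected, so dose and collection time cannot be told apart either.

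Elastin and a few other matrix genes rose, while most of the measured matrix did not pass. Elastin, encoded by Eln, forms the recoil fibres of alveolar walls and vessels and is made mainly in early life. Its levels were 1.41, 0.85, 0.30, 0.67 and 0.26 on day 6 and 3.07, 2.66, 2.89, 3.32 and 3.47 on day 28. Every day 28 rat, rat 8 included, lay more than 1 unit above every day 6 rat. The change was 2.39 (SE 0.266, adjusted p = 1.44e-06), 5.23-fold, the largest rise of any gene with a symbol, and its second probe gave 1.39. Within the 3 shared slides the difference was 2.06, 2.34 and 2.77.

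Emilin1, a glycoprotein laid down between elastin and microfibrils, was at -1.12, -1.12, -1.14, -1.29 and -1.10 on day 6 and at 0.13, -0.27, -0.19, 0.04 and -0.05 on day 28. The day 6 rats were within 0.2 units of each other and all lower, and the change was 1.08 (SE 0.1, adjusted p = 4.87e-08). A dimmer second probe of Emilin1 gave 0.13 and did not pass. These 2 were the only ones of 24 measured elastic fibre and matrix glycoprotein genes to pass, where 1.86% of all genes were higher. Without rat 8, 5 passed, 3 higher and 2 lower, against 8.88% higher and 4.67% lower of all genes in that fit. The median of that list was 0.07, against 0.01 for all genes, so the list did not shift as a whole. Col1a1, the main chain of type I collagen, was at -2.37, -2.32, -2.55, -1.71 and -2.28 on day 6 and at -0.69, -1.20, -1.42, -0.89 and -0.80 on day 28, without overlap. It rose by 1.24 (SE 0.258, adjusted p = 0.00714), but its second probe gave 0.33 (adjusted p = 0.319). Of 19 measured collagen and collagen-processing genes, 3 rose, Col1a1, Col5a3 (0.64) and the crosslinking enzyme Loxl1 (0.92, named to complete its list), and none fell, against 1.86% higher of all genes. The list's median was 0.07. Without rat 3, 5, 6 or 9 only 1 of the 3 passed. Without rat 8, 5 rose, against 8.88% of all genes higher in that fit. Loxl1 missed the threshold under 13 of 23 alternatives and Col5a3 under 5. Col1a2, the other chain of type I collagen and named to complete the list, was measured and did not pass. Col3a1, the chain of type III collagen, gave 0.15 (adjusted p = 0.639).

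Single genes of mesenchymal cells rose too, but their marker lists did not move together. Of 11 measured fibroblast and lipofibroblast genes, 1 rose (Pdgfra) and 1 fell (Inmt), against 1.86% higher and 1.09% lower of all genes. The median of that list was -0.17. Pdgfra, the PDGF receptor of lung fibroblasts, ran from -0.61 to -0.25 on day 6 and from 0.09 to 0.44 on day 28, a rise of 0.75 (SE 0.141, adjusted p = 0.00304). Pdgfrb, that of pericytes, rose by 0.92 (adjusted p = 0.00232), with rat 8 lowest on day 28 at 0.88 and still above day 6, where the highest was 0.58. Foxs1, a forkhead factor of perivascular cells, rose by 1.05 (adjusted p = 0.000714), and the myosin kinase gene Mylk by 0.45 (adjusted p = 0.0417), the latter lost under 15 of 23 alternatives. Of 13 measured smooth muscle and pericyte genes, 2 rose (1 when any rat but 2 or 8 was left out), against 1.86% of all genes higher. Their changes ran from -0.47 to 0.92 with a median of 0.05, so the list did not move together. The secreted proteins Spon2 (1.46) and Fibin (1.12) and the sulfotransferase Hs3st6 (1.23) rose too. Of 19 measured vasoactive and renin-angiotensin genes 3 rose and none fell, against 1.86% of all genes higher, with a list median of 0.03. They were Adm, the vasodilator peptide adrenomedullin (0.72), Adora2a, an adenosine receptor (0.66), and Ednra, the endothelin receptor of smooth muscle (0.57, named to complete its list). Of these, 1 passed without rat 6 or 7 and none with median centring.

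The day changes of some matrix genes differed from air in exposed rats, mostly at the high dose. Mean levels of Eln on day 6 were 0.70 ± 0.469 in air, 1.71 ± 0.314 in low dose and 1.77 ± 0.837 in high dose rats, and on day 28 they were 3.08 ± 0.326, 2.75 ± 0.207 and 1.56 ± 0.164 (SD, n = 5 each). Its day change was 1.03 at the low and -0.20 at the high dose, and differed from air at the high dose (adjusted p = 1.13e-05) and not at the low (adjusted p = 0.0585). Emilin1 fell by 0.81 at the high dose, against its rise in air (adjusted p of the difference = 1.89e-10), and Col1a1 fell by 0.85 there (adjusted p of the difference = 0.000129). Pdgfra and Pdgfrb rose in all 3 sets of rats, by 0.94 and 0.77 at the low dose and by 0.48 and 0.57 at the high dose.

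**Figure D3:**
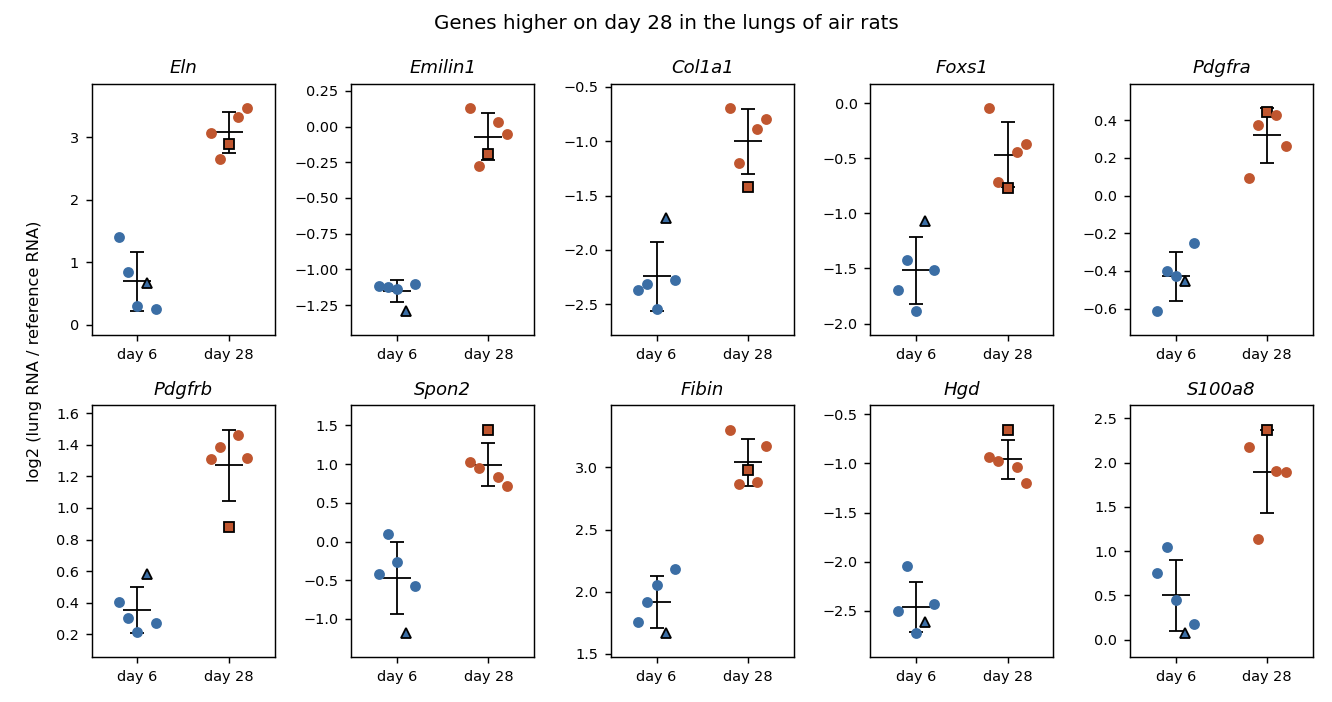
Levels of 10 genes that rose in air rats, as log2 of lung over reference RNA, by day; bars are the mean and SD of 5 rats, the triangle is rat 4 and the square rat 8, and each plot has its own axis. In each of these genes the lowest day 28 rat is above the highest day 6 rat, with the largest step in Eln (2.39).

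Other genes that rose belonged to blood and metabolism. S100a8, a member of the calprotectin pair that fills neutrophils, was at 0.76, 1.05, 0.45, 0.08 and 0.18 on day 6 and at 2.18, 1.14, 2.37, 1.90 and 1.89 on day 28. Rat 7 on day 28 came within 0.1 of rat 2 on day 6, and the change was 1.39 (SE 0.29, adjusted p = 0.00727). Its partner S100a9 rose by 1.33 (adjusted p = 0.0417), lost under 11 of 23 alternatives. These were the only 2 of 12 measured neutrophil genes to pass, against 1.86% of all genes higher. Only 1 was left when any rat but 7 or 8 was left out. The range of the list's mean level was 0.463 to 0.819 on day 6 and 0.737 to 1.16 on day 28. The haemoglobin gene Hbb-bs rose by 1.28 (adjusted p = 0.0104); near-identical haemoglobin genes can share its signal, and Hbb gave 0.40 without passing. The mean level of 9 measured erythroid genes was 2.49 to 2.84 on day 6 and 2.93 to 3.35 on day 28, without overlap. Hbb-bs is not among these 9, whose highest change was 1.15. Of the 9, 1 rose with all rats and 4 without rat 8, against 1.86% and 8.88% of all genes higher. With slide as a block 4 passed, and none passed with median centring or with a 1.5-fold minimum. How far blood in the sampled tissue moved these values was not tested.

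Hgd, an enzyme of tyrosine breakdown, was at -2.50, -2.04, -2.72, -2.61 and -2.43 on day 6 and at -0.93, -0.97, -0.66, -1.04 and -1.20 on day 28. The days were 0.8 units or more apart, with a change of 1.499 (SE 0.147, adjusted p = 1.42e-07). The acyl-CoA synthetase Acsm5 rose by 1.34 (adjusted p = 0.000143) and the calcium-binding S100g by 1.11 (adjusted p = 0.000468). Acsm5 rose at both doses as well (1.07 and 1.62), whereas S100g gave 0.00 at the low and 0.28 at the high dose, both different from air (adjusted p = 0.0125 and 0.0224).

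On the lower side, genes that glucocorticoids induce fell on day 28. Glucocorticoids are adrenal hormones released in stress and also in a daily rhythm, and lung cells respond through their receptor. Of 19 measured genes of that response, 6 fell and none rose, against 1.09% of all genes lower, and the median was -0.32. Without rat 8, 10 of 19 passed, all lower, against 4.67% of all genes lower in that fit. None passed without rat 5 or 6, 1 without rat 7, 2 without rat 9 and 3 without rat 1, 3 or 4. The count of 6 thus rests on single rats. Slide as a block left 3. Fkbp5, a chaperone of the receptor, was at 1.00, 0.28, 1.26, 1.25 and 2.11 on day 6 and at -1.03, -1.01, -0.26, -0.24 and 0.37 on day 28. The spread within days was wide and rat 10 on day 28 overlapped rat 2 on day 6. The change was -1.61 (SE 0.36, adjusted p = 0.0133), 3.06-fold lower.

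Zbtb16, a transcription factor strongly induced by these hormones, was at 1.47, 1.30, 1.94, 2.73 and 3.11 on day 6 and at 0.44, 0.55, 0.82, 0.50 and 1.17 on day 28. It fell by 1.41 (SE 0.395) with an adjusted p of 0.0479, and missed the threshold under 14 of 23 alternatives. The metallothionein gene Mt2A fell by 1.28 (adjusted p = 0.0201), and a second probe gave -0.55 without passing; closely related metallothioneins can share its signal. Klf9 (-0.75), Map3k6 (-0.99) and Errfi1 (-0.70) were the other members that fell, the last 2 named to complete the list. Errfi1 missed the threshold under 15 of 23 alternatives, Map3k6 under 9, Mt2A under 5 and Klf9 under 4. Klf9 is a member of the clock output list too. Tsc22d3, the glucocorticoid-induced leucine zipper, gave -0.60 with overlapping groups (adjusted p = 0.139), and the receptor gene Nr3c1 gave -0.01. The activity-induced gene Fos gave -1.21 and ran from -2.15 to -0.21 on day 6 and from -3.33 to -0.44 on day 28 (adjusted p = 0.208). None of the 6 day changes of Fkbp5, Zbtb16 and Tsc22d3 in exposed rats passed, and only that of Fkbp5 at the high dose differed from air (adjusted p = 0.0384).

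Detoxifying enzymes fell in part. Of 28 measured genes of xenobiotic metabolism, 4 fell and none rose, against 1.09% lower and 1.86% higher of all genes, with a list median of -0.18. Gsta1, a glutathione transferase, was at 2.49, 1.99, 2.42, 2.69 and 2.53 on day 6 and at 1.07, 1.11, 1.66, 0.90 and 1.09 on day 28. Rat 8 was the highest of day 28 and still below every day 6 rat, and the change was -1.26 (SE 0.177, adjusted p = 7.32e-05). Gsta3 fell by 1.27 (adjusted p = 0.00126). Por, the electron donor of the cytochromes P450 and named outside the rule, fell by 0.55 (adjusted p = 0.00304). The remaining member that fell is not named here, and Alas1 and Inmt below are not in this list. A dimmer second probe of Gsta3 gave -0.62 without passing, and alpha-class transferases are near copies that can share signal. Alas1, which makes the first step of haem synthesis, was at 3.94, 3.50, 4.10, 4.52 and 3.68 on day 6 and at 2.22, 2.60, 3.45, 2.31 and 2.80 on day 28. Rat 8 was nearest to day 6, with a change of -1.27 over all rats (SE 0.2, adjusted p = 0.000348) and -1.47 without rat 8. The methyltransferase Inmt fell by 1.23 at an adjusted p of 0.0499, which missed the threshold under 14 of 23 alternatives.

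Tspan4, a membrane tetraspanin, fell with little spread between rats. Its levels were 0.86, 0.53, 0.59, 0.37 and 0.49 on day 6 and -0.79, -0.86, -0.82, -0.88 and -0.84 on day 28, where the SD was 0.0325. The change was -1.40 (SE 0.0926, adjusted p = 6.04e-11), and within the 3 shared slides it was -1.49, -1.36 and -1.44. Tspan4 fell at the low (1.17) and the high dose (0.43) too, less so at the high dose than in air (adjusted p of the difference = 3.25e-06). The poly(A) polymerase gene Tent5b (-1.22), the keratin Krt76 (-1.16) and the acetyltransferase Nat8f5 (-1.09) were also among the 15 largest falls. None of these 3 passed at either dose.

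**Figure D4:**
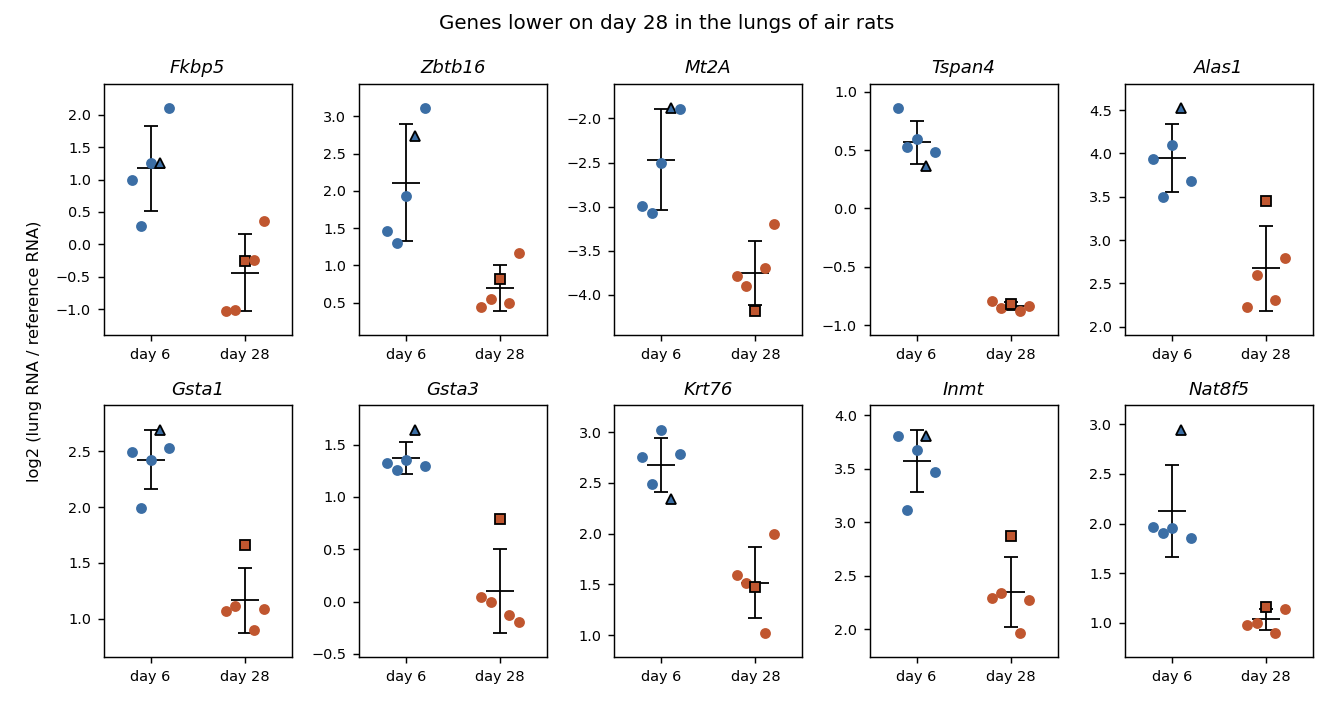
Levels of 10 genes that fell in air rats, as log2 of lung over reference RNA, by day; bars are the mean and SD of 5 rats, the triangle is rat 4 and the square rat 8, and each plot has its own axis. Only Fkbp5 has overlapping days, and rat 8 is the highest of day 28 in Gsta1, Gsta3, Alas1, Inmt and Nat8f5.

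Marker genes of lung and blood cell types mostly did not pass. Of the lists of 22 cell types and 6 other tissues, no list had more than 2 members that passed, where 2.95% of all genes passed. None of 11 alveolar type II, 12 alveolar type I, 13 ciliated, 13 club and goblet or 11 alveolar macrophage genes passed. In rat 4 the mean level of the club and goblet genes was 4.29, against 2.15 to 2.44 in the other 9 air rats, and that of the ciliated genes was 3.28, against 1.99 to 2.76. The heart muscle list had the lowest median, -0.997 over 17 genes, and without rat 4 the median was 0.01. In that rat Myh6, a heart myosin, was at 5.93 and Csrp3, a muscle LIM protein, at 5.77, while Csrp3 lay between -1.39 and -0.50 in the other 9 rats. Rat 5, also of day 6, had Myh6 at 2.14. No heart muscle gene passed.

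Some genes with large day changes in exposed rats did not pass in air. Ccl2, a monocyte attractant, ran from -5.07 to -3.75 on day 6 and from -5.44 to -3.79 on day 28, a change of 0.16 (SE 0.418, adjusted p = 0.852), while it fell by 3.06 at the low and by 5.77 at the high dose. Lcn2, an iron-binding defence protein, gave -0.86 in air (adjusted p = 0.121), while it fell by 4.98 at the low dose and fell by 4.88 at the high dose. Spp1 (0.10), Mmp12 (-0.10) and Ccl17 (-0.17) did not pass in air either, and all 5 genes differed from air at both doses with adjusted p between 7.7e-12 and 0.00274. S100a9 went the other way: it rose by 1.33 in air and fell by 1.91 and 3.02 at the doses, from day 6 levels of 2.96 ± 0.352 in air, 6.27 ± 0.45 at the low and 6.45 ± 0.595 at the high dose (SD, n = 5 each). Mmp12 was well above background on 4 of 5 day 6 and 2 of 5 day 28 air arrays.

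Of the 543 genes that passed in air, 220 (40.5%) passed the same way at the low dose, which is 10.1% of the 2184 that passed there (11.9% of all tested). At the high dose 211 (38.9%) passed the same way, 3.41% of the 6180 that passed there (33.6% of all tested). In all, 150 passed the same way at both doses, 281 at either, and 213 of the air genes passed at neither dose. At the low dose 3.91% of all genes were higher and 7.94% lower on day 28, and at the high dose 13.6% were higher and 20% lower. Opposite calls were fewer: of the 343 genes higher in air, 9 were lower at the low and 35 lower at the high dose, and of the 200 genes lower in air, none was higher at the low and 20 were higher at the high dose. Genes that passed the same way in air and at both doses included Npas2 (2.18, 2.12 and 1.48), Per2 (-2.50, -2.17 and -0.76), Wee1 (-1.76, -0.97 and -0.58), Clock (0.61, 0.58 and 0.51), Spon2 and Acsm5. The day change itself differed from air in 359 genes (1.95%) at the low and in 3084 genes (16.7%) at the high dose.

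**Figure D5:**
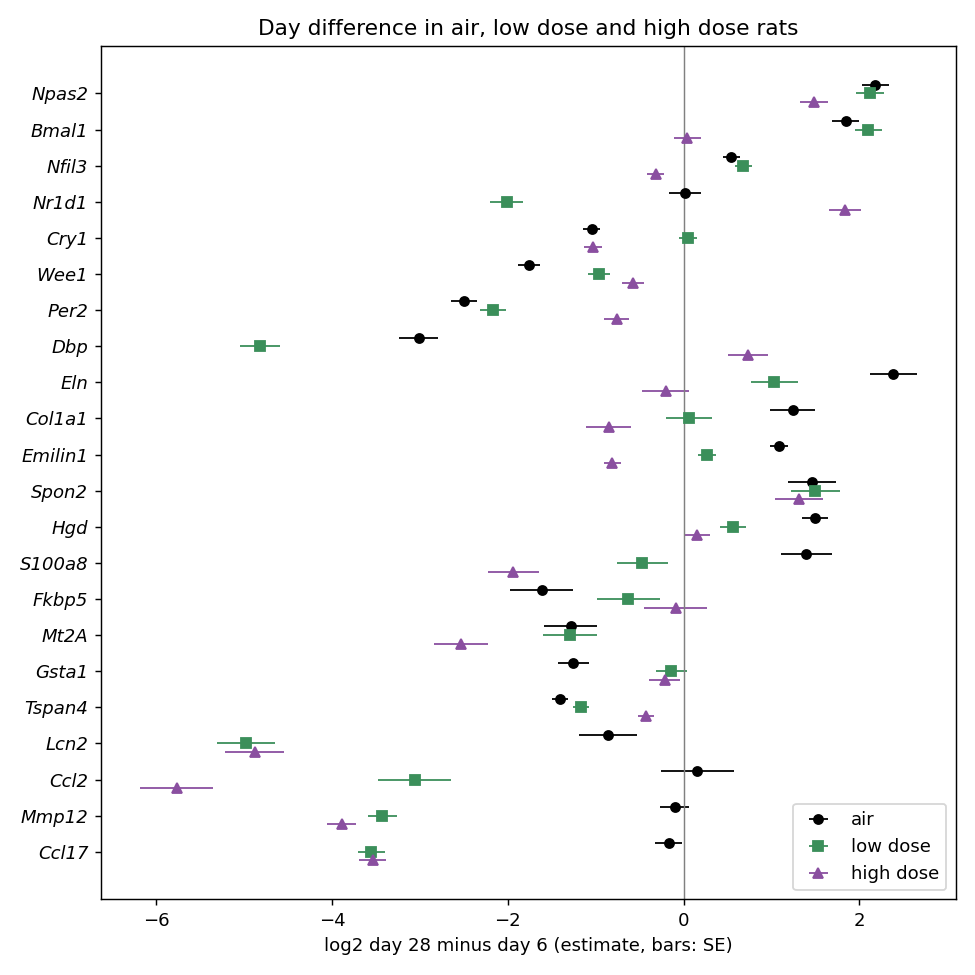
Change from day 6 to day 28 in log2 units (estimate with SE bars, 5 rats per group and day) for 22 genes in air, low dose and high dose rats. Npas2, Per2, Wee1, Spon2 and Tspan4 moved the same way in all 3 sets, Dbp and Nr1d1 are spread to both sides, and Lcn2, Ccl2, Mmp12 and Ccl17 are near 0 or small in air (-0.86 to 0.16) and strongly lower at both doses.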

How the data were processed

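Each of 30 lungs was hybridised with a common reference on a 2-colour Agilent array. The deposited scanner files hold intensity values from Agilent Feature Extraction 11.0.1.1, per the file headers. The authors' deposited value table holds log2 ratios, made in a way that the sources used here do not give; it served as an alternative. From the intensities, background was corrected by normexp (offset 50) on median signals, ratios were normalized by loess within arrays with 4259 control spots and flagged spots at no weight, and spots of a probe were averaged. Probes with Cy5 well above background on at least 5 of 30 arrays were kept (20852 of 30367), and the brightest probe stood for a gene. Accessions were matched to RefSeq genes (GRCr8), naming 18005 probes; 7089 of 18420 tested genes had no symbol. Limma 3.58.1 in R 4.3.3 fitted 6 group means on 30 arrays, with Benjamini-Hochberg adjustment at 0.05. In data simulated for this comparison (18420 genes), 42 of 67 genes changed by 0.5, 63 of 67 by 1 and 66 of 66 by 2 log2 units were recovered, with 12 false calls. These figures hold for the simulated data alone. In the real arrays, leaving out single air rats moved the count of genes passing to between 180 and 2495. The simulation therefore does not give the recovery or the false calls of the real comparison. A group has 5 rats, 1 array each, and the median SE of a change was 0.115; the number of arrays limits the precision. The air rats' numbers in the labels differ between days.

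Where all arrays of a day were not well above background, the fold is a bound against the lowest signal well above background. Named were the 15 largest rises and falls among genes that passed without overlap, the 2 members with the smallest p of each list, the 3 with the smallest p in each difference between day changes, and a panel; genes outside this rule are marked, and some genes the rule names are not reported here. The comparison, the lists and the panel were chosen with earlier results of these data known. Alternatives were other background corrections, scalings, filters and probe rules, slide as a block, other fits, and each rat left out; leaving out rats 4 and 8 together was added after seeing the data. No table of counts was used.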

Additional observations from a re-analysis of the deposited data

Results flagged for a closer look

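Among the 68 genes described, 136 sets of 5 air rats were searched for a rat whose gap to its nearest neighbour took up more than 0.71 of the set's range, which chance gives in about 1 of 20 sets. Such a gap was found 13 times. Day 28 rat 8 made 5 of them: it was low in Cry2 (0.0714), Pdgfrb (0.88) and Adora2a (0.77) and high in Gsta1 (1.66) and Gsta3 (0.79), each time on the side of day 6 except in Cry2, where the days overlap. Day 6 rat 4 made 4, low in Emilin1 (-1.29) and high in Gsta3 (1.64), Nat8f5 (2.95) and Csrp3 (5.77). Rat 10 was low in Npas2 (0.70) and high in Nr1d1 (1.58), rat 2 was low in Wee1 (0.39) and rat 5 was low in Hbb-bs (2.29).

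The day change differed from that of air at the low dose in 16 of these genes, by the test of the difference in the limma fit (adjusted p under 0.05 over all genes). Low dose minus air was -4.12 for Lcn2, -3.38 for Ccl17, -3.33 for Mmp12, -3.24 for S100a9, -3.22 for Ccl2, -1.87 for S100a8 and -1.71 for Spp1. In clock genes it was -2.03 for Nr1d1, -1.80 for Dbp, 0.79 for Wee1, 1.03 for Noct and 1.102 for Cry1. In the others it was -1.11 for S100g, -0.93 for Hgd, -0.82 for Emilin1 and 1.12 for Gsta1.

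At the high dose the day change differed from air in 42 of the 68. High dose minus air was -5.93 for Ccl2, -4.35 for S100a9, -4.02 for Lcn2, -3.79 for Mmp12, -3.37 for Ccl17, -3.33 for S100a8 and -3.11 for Spp1. In matrix and vessel genes it was -2.59 for Eln, -2.09 for Col1a1, -1.89 for Emilin1, -1.32 for Loxl1, -0.92 for Fibin, -0.83 for Col3a1 and -0.80 for Adora2a. In clock genes it was 3.75 for Dbp, 2.00 for Klf15, 1.82 for Nr1d1, 1.74 for Per2, 1.55 for Tef, 1.48 for Klf9, 1.18 for Wee1, 0.96 for Nr1d2, 0.76 for Per3, 0.58 for Usp2 and 0.46 for Ciart, the last from air signals not well above background on day 28, and it was -1.80 for Bmal1, -0.90 for Nampt, -0.86 for Nfil3 and -0.70 for Npas2. In glucocorticoid and detoxifying genes it was 1.52 for Fkbp5, 1.55 for Errfi1, 1.55 for Map3k6, -1.25 for Mt2A, 1.04 for Gsta1, 1.16 for Alas1 and 2.12 for Inmt. In the remaining genes it was -1.34 for Hgd, -0.83 for S100g, 0.98 for Tspan4, 1.76 for Tent5b, 1.21 for Krt76 and 1.12 for Nat8f5.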

How the results depend on the processing

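No paired analysis was possible because the rat numbers of the 2 days differ (1 to 5 and 6 to 10). The count of genes between the days in air was 94 with median centring, 1161 with only the air rats in the fit, 206 with a 1.5-fold minimum and 2495 without rats 4 and 8; leaving out single rats gave 180 to 2495. The slide as a block gave 365, of which 335 were among the 543, with 7 of the 50 named genes that passed losing their pass. The genes that also passed the same way at a dose, 281, were 41 with median centring, 90 with a 1.5-fold minimum, 784 without rats 4 and 8 and 118 to 829 without single rats. The day changes that differed from air were 99 (low) and 1286 (high) with median centring, and 1958 (high) with a 1.5-fold minimum. No named gene that passed changed direction under any of the 23 alternatives; 20 of 50 passed under all, and median centring took the pass from 23, including Clock, Nfil3, Pdgfra and S100a8. Causes were not tested. Signal over background limits Per1 and Ciart, which were not well above background on any day 28 air array.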

Other observations

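Some gene groups not described above moved in several members once rat 8 was left out, and are given as values. Of 24 measured respiratory chain genes, 2 fell with all rats (Ndufb9 and Uqcrc2), and 10 fell and 1 rose without rat 8, but 6 fell and 2 rose without rats 4 and 8. Medians with all rats and without rat 8 were -0.25 and -0.28, against 0.01 for all genes in both fits. Of 12 heat shock genes none passed with all rats and 4 fell without rat 8 (2 without rats 4 and 8), while of 21 mitosis genes none passed with all rats and 5 rose without rat 8 (3 without rats 4 and 8). Rat 4 had the highest mean level of the 10 rats in the respiratory chain list (0.224, others at -0.108 or less) and in the heat shock list (0.529, others at 0.111 or less). With all rats 1.86% of all genes rose and 1.09% fell, and without rat 8, 8.88% rose and 4.67% fell. Without rats 4 and 8, 1549 of all 18420 genes rose and 946 fell. Mesothelial genes had a mean level of 1.39 in rat 8 and between 2.36 and 3.03 in the other day 28 rats, against 1.87 to 2.50 on day 6; none of the 6 measured passed.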
